A study of Mus musculus with 4 samples.

Results

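The value table of this mouse array series listed 624 probes designed to a RefSeq non-coding transcript (accession prefix NR_), of 25482 probes in the table and of 2477 such probes on the array. They were chosen by that prefix and by their place in the table, and no level or difference entered the choice of probes apart from detection. Of the 624, 591 carried 1 gene symbol each, for 553 genes, and 33 had no symbol here. By RefSeq gene type, 425 probes belonged to long non-coding RNA (lncRNA) genes, 116 to pseudogenes, 26 to non-coding transcripts of protein-coding genes and 24 to small structured RNAs.

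RNA came from cells that the labels call peritoneal macrophages and the titles PEC, which commonly stands for peritoneal exudate. Mice were wild type (WT) or LysM-St18flox, and cells of each genotype were taken at 0 h or 3 h after addition of lipopolysaccharide (LPS), the bacterial outer membrane component sensed by Toll-like receptor 4. All 4 groups shared the same preparation, a lavage 3 days after injection of thioglycollate, which recruits inflammatory cells to the peritoneum. LysM names the promoter of the lysozyme gene, active in myeloid cells (macrophages and neutrophils), so that a gene recombined under it would stay intact in the lavage's other cells. The sources used here do not give the strain or age of the mice, their number per array or the LPS dose.

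Each group had 1 array, so no difference has a replicate check and no test was made. Values are log2 signal minus the array's 75th percentile, called signal here, and differences are between single arrays. A probe was counted as higher or lower at a difference of at least 2-fold (log2 1). All 4 arrays lay on 1 slide. The 75th percentile before scaling was 672 to 1067. Every member was well above background on all 4 arrays and none was saturated. St18 itself, a zinc finger transcription factor gene, was well above background at 1 of its probes in both WT arrays (-1.31 and -1.66) and in neither LysM-St18flox array. The labels do not say which exons were removed, so this is no check of the deletion itself. All 8 macrophage markers looked at were above background on each array, with a summed linear signal of 609 to 773. Markers of other cells were also present and differed between genotypes, as given with the genotype comparison. In bulk RNA, fewer cells of a type and less RNA per cell cannot be told apart.

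Long non-coding RNAs are transcripts annotated as having no protein product, and many act in the nucleus on neighbouring genes or on chromatin. Some serve as hosts: the introns of snoRNA host genes carry small nucleolar RNAs, which guide the modification of ribosomal RNA, and microRNA host transcripts are cut in the nucleus to release hairpins that become microRNAs. In macrophages LPS acts mainly through the transcription factors NF-kB, AP-1 and the interferon regulatory factors, and several lncRNAs are known targets of this response.

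The microRNAs below lie within members on the same strand in the RefSeq table of assembly GRCm38.p6, and are shown because the arrays read the host transcript and not the mature product. The span of 10 named lncRNA genes holds such a microRNA. Capitals mark the seed, bases 2 to 8, through which a microRNA pairs with its targets.

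mmu-miR-223-3p: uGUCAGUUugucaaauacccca
mmu-miR-22-3p: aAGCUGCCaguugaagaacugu
mmu-miR-16-5p: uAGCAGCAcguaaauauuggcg
mmu-miR-101a-3p: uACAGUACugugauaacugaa
mmu-miR-182-5p: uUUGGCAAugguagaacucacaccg
mmu-miR-96-5p: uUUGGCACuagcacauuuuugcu
mmu-miR-183-5p: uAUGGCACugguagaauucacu
mmu-miR-1839-5p: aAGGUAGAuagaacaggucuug
mmu-miR-6516-5p: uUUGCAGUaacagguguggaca
mmu-miR-3069-3p: uUGGACACuaaguacugccaca
mmu-miR-294-3p: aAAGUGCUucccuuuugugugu
mmu-miR-295-3p: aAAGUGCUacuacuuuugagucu

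The hosts were F630028O10Rik (miR-223, at chrX:96242884-96242905 on the plus strand), Mir22hg (miR-22, chr11:75463772-75463793, plus), Dleu2 (miR-16, chr14:61631936-61631957, minus) and E130102H24Rik (miR-101a, chr4:101346957-101346977, minus). Mirc35hg holds the cluster of miR-182, miR-96 and miR-183 on the minus strand (chr6:30165962-30165986, chr6:30169506-30169528 and chr6:30169711-30169732). 2900076A07Rik holds miR-1839 (chr7:81529919-81529940, plus), Snhg20 miR-6516 (chr11:117077370-117077391, plus) and Snhg10 miR-3069 (chr12:105031078-105031099, minus). D7Ertd143e holds the cluster with miR-294 and miR-295 (chr7:3220691-3220712 and chr7:3220815-3220837, plus), whose 3p arms share the seed AAGUGCU, the only seed besides CUCAAAC (miR-292a-5p and miR-293-5p, of the same cluster) that more than 1 of the listed microRNAs had. The tenth host was Rian, an imprinted lncRNA with several microRNAs.

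Signals of non-coding RNA probes lay low in the distribution of all listed probes. Their median stood at percentile 33.5 of mean signal, and that of lncRNA probes at percentile 29.2. Pseudogene probes had a median at percentile 59.8, small structured RNAs at 49.1 and non-coding transcripts of protein-coding genes at 40.3. Signal depends on the probe as well as on the RNA, so these places describe probe signals and not amounts.

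The brightest named member was Rn4.5s, a short cytoplasmic RNA of rodents, with a mean signal of 8.37. It was followed by the pseudogenes Gm5523 (7.83) and Gm6548 (7.38). Pseudogene probes can take up RNA of near-identical parent genes, so their signals are uncertain as to source. The brightest lncRNA probes were those of Gm20751 (percentile 98.7) and AA536875 (percentile 98.4), and among well-studied lncRNAs Norad, a cytoplasmic RNA that binds Pumilio proteins, reached percentile 94.7 with its brightest of 4 probes. At the other end A530013C23Rik had the lowest mean signal of a named member (-4.15). Outside the table, 1853 NR_ probes were left, of which 388 were above background on at least 1 array and 0 on all 4, so the table's edge is detection on all arrays.

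The LPS response asked which non-coding RNAs differed after 3 h. In WT cells 59 of the 624 probes (9.46%) were at least 2-fold higher, against 10.4% of all listed probes, and 86 (13.8%) at least 2-fold lower, against 11.4%. In LysM-St18flox cells 40 (6.41%) were higher, against 8.08%, and 68 (10.9%) lower, against 8.32%. These LPS comparisons share no array. In both genotypes together 25 probes (4.01%) were higher, against 6.12% of all listed probes, and 44 (7.05%) lower, against 5.78%. The median difference of the members was -0.18 in WT and -0.16 in LysM-St18flox cells, beside -0.07 and -0.06 over all listed probes.

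Most of the lower lncRNA probes had a signal below the median of all listed probes. So had most lncRNA probes of any kind, whose upper quartile stood at percentile 47.6. Of the lncRNA probes at or under the 25th percentile of signal, 41 of 180 (22.8%) were lower in WT cells, against 17.4% of all listed probes in that range, and 5 (2.78%) were higher, against 7.33%. Between the 50th and 75th percentile 12 of 70 lncRNA probes (17.1%) were higher in WT cells and 6 (8.57%) lower, against 11.3% and 9.62% of all listed probes there. In LysM-St18flox cells the same range had 8 higher (11.4%) and 11 lower (15.7%), against 9.23% and 7.02%. Above the 75th percentile 2 of 28 lncRNA probes (7.14%) were higher in WT cells and 1 (3.57%) lower, against 11.1% and 4.07%. There LysM-St18flox cells had 8 higher (28.6%) and 1 lower (3.57%), against 10.5% and 2.61%. Among members at or above the median signal of all listed probes, 27 of 202 were higher in WT cells and 9 lower, against 11.2% and 6.84% of all probes that bright. In LysM-St18flox cells 22 were higher and 12 lower, against 9.88% and 4.81%. The probes of all kinds at these signals were thus also more often higher than lower. With a normexp background correction the WT split was 49 higher and 46 lower, and the LysM-St18flox split 34 and 36, beside 2087 and 1895 over all listed probes in WT and 1801 and 1269 in LysM-St18flox cells. Without that correction the counts over all listed probes were 2660 and 2904 in WT and 2059 and 2120 in LysM-St18flox cells.

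AW112010, an lncRNA gene known to respond to LPS and interferon, had the largest higher difference among named lncRNA members in both genotypes. Its signal was 0.11 at WT 0 h and 4.06 at WT 3 h, and in LysM-St18flox cells 1.05 before and 5.04 after LPS. Both LPS arrays stood above both unstimulated arrays, 15.4-fold in WT and 15.9-fold in LysM-St18flox cells. Both LysM-St18flox values also stood above the WT value of their time, by 0.94 and 0.99, just under 2-fold. The summed signal of T and NK cell markers, another class of cells known to express this gene, was 3.10, 3.90, 7.15 and 8.70 on the arrays in the same order, and its part in that difference was not tested.

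Morrbid, known as a myeloid lncRNA that represses the neighbouring cell death gene Bcl2l11 (Bim), was the next of the immune-linked list. The signal was -0.78 and 2.08 in WT cells and -1.36 and 1.95 in LysM-St18flox cells, at 0 h and 3 h. That was 7.24-fold higher with LPS in WT and 9.88-fold in LysM-St18flox cells. A second Morrbid probe outside the table was above background at 3 h only. Bcl2l11 itself was 0.56 and 0.57 higher (log2), under 2-fold.

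The promoter window of Morrbid, 250 bases before to 50 after the start, is shown because a gene higher with LPS held letters of 2 of the motifs searched. It lies at chr2:128429302-128429601 on the minus strand (RefSeq, GRCm38.p6), and capitals mark a match to the NF-kB pattern 123 bases before the start and a match to the AP-1 pattern 1 base before it.

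Morrbid promoter: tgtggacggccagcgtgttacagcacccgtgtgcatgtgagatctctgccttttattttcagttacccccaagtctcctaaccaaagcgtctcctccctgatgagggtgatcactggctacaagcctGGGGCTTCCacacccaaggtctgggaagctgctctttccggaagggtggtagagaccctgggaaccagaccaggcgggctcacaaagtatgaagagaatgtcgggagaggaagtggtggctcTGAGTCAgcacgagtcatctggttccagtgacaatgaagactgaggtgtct

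Both strands were searched for NF-kB (GGG, any 2 bases, then TTCC or TTTCC), the interferon-stimulated response element (GAAA, any 2 bases, GAAA) and AP-1 (TGANTCA), and a window was counted once for each. Of 17 windows of the genes higher in both genotypes, 2 held the NF-kB letters, 1 the interferon element and 3 AP-1. Over all 32851 windows the shares were 7.0%, 3.44% and 7.81%. For genes lower in both genotypes the counts were 4, 1 and 1 of 31 windows. A match is a description of letters and not of binding.

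Other lncRNAs had LPS differences of like size. AI504432 was at -0.44 and 2.75 in WT cells and -0.45 and 2.70 in LysM-St18flox cells, 9.11-fold and 8.85-fold higher. 2500002B13Rik was at -1.17 and 2.05 in WT and at -1.69 and 1.57 in LysM-St18flox cells, 9.29-fold and 9.58-fold higher. In both genes the genotypes were close at each time, within 0.52 on the log2 scale.

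Gm15987 was at -2.32 and 0.97 in WT and at -1.54 and 1.06 in LysM-St18flox cells, 9.79-fold and 6.07-fold higher. A630072M18Rik was 5.53-fold higher in WT and 8.64-fold in LysM-St18flox cells, Gm38403 4.19-fold and 5.62-fold, 6530402F18Rik 6.53-fold and 3.27-fold, and Gdap10 3.18-fold and 4.17-fold. Of these, Gdap10 had the highest signal at 0 h, 2.99 in WT and 2.92 in LysM-St18flox cells. The remaining named lncRNAs higher in both genotypes differed by at most 1.51 in WT and 1.80 in LysM-St18flox cells, among them Phxr4, 6330407A03Rik and Trmt61b, whose 2 probes both passed 2-fold. Both probes of 1500011B03Rik also passed 2-fold, but in opposite directions (-1.13 and 1.13 in WT cells), so the gene has no settled direction.

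Lower with LPS in both genotypes was F630028O10Rik, the host of miR-223, a microRNA known for restraint of neutrophil and macrophage activation. Its signal was 3.38 and 1.39 in WT cells and 3.00 and 1.07 in LysM-St18flox cells, 3.97-fold and 3.83-fold lower. Both LPS values lay below both unstimulated values. Neutrophil markers, cells that also express miR-223, had a summed signal of 77.9 and 110 in WT and 32.5 and 37.0 in LysM-St18flox cells. Single neutrophil markers differed with LPS in either direction, as Lcn2 at -0.25 and 3.76 and Retnlg at 3.07 and 2.78 in WT cells, and their part in the difference of F630028O10Rik was not tested. The neighbouring gene Vsig4 differed by -0.28 and -0.16.

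The window at the start of F630028O10Rik, chrX:96239676-96239975 on the plus strand, held 1 interferon element on the reverse strand, 74 bases before the start, in capitals.

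F630028O10Rik promoter: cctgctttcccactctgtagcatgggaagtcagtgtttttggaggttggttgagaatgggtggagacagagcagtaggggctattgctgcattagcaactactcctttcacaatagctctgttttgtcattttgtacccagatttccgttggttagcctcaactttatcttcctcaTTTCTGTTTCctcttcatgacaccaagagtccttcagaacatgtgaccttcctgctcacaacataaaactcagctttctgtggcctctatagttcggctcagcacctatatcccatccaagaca

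Lncpint, an lncRNA gene induced by p53, was lower at both of its probes. The brighter probe was at 0.83 and -1.99 in WT and 0.75 and -1.37 in LysM-St18flox cells, 7.08-fold and 4.33-fold lower, and the dimmer probe differed by -2.59 and -2.33. Among members lower in both genotypes the largest difference was that of 5031425F14Rik, at -0.77 and -4.19 in WT and -1.10 and -4.22 in LysM-St18flox cells. Its LPS values lie near the lowest signals of the table, so the size of that difference rests on dim spots.

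AU022793 was lower from a higher level, at 1.98 and -0.46 in WT and 2.05 and -0.64 in LysM-St18flox cells (5.44-fold and 6.48-fold). 2610507I01Rik was 7.47-fold and 5.81-fold lower. Also lower in both genotypes were 4933439C10Rik (-2.32 and -2.02), 4930425O10Rik (-2.11 and -2.33), Gm16062 (-1.92 and -2.52) and Cahm (-1.62 and -1.68). Of the 44 probes lower in both, 39 were lncRNAs, 2 non-coding transcripts of protein-coding genes (Alg13 and Rbmx), 2 pseudogenes and 1 unnamed.

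Genes next to the LPS-responsive members were taken from gene order in RefSeq, as the nearest or overlapping protein-coding gene. Of 22 genes higher in both genotypes by their brightest probe, 18 had a neighbour above background on all arrays, and that neighbour was also at least 2-fold higher in both genotypes for 5 (27.8%) and lower for 1. Among all 11816 named genes above background on the 4 arrays, 6.28% were higher in both genotypes and 6.25% lower. Of 36 genes lower in both, 29 had such a neighbour, of which 7 (24.1%) were lower in both and 0 higher. The neighbour overlapped the member itself for 8 of the 18 higher genes and 11 of the 29 lower genes.

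AI504432 lies beside Kcna3, a voltage-gated potassium channel gene of leukocytes, which differed by 3.52 in WT and 3.05 in LysM-St18flox cells. 2500002B13Rik lies beside Sap30, a subunit gene of the Sin3 corepressor complex (2.24 and 2.38), and Gm38403 beside the kinase gene Dyrk2 (2.50 and 2.21). Gdap10 overlaps Nampt, an enzyme gene of NAD synthesis (1.29 and 1.60). Slfn10-ps lies beside Slfn8, a related gene that could share its signal.

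The exception among higher genes was Gm15987, which overlaps Clec2g, a C-type lectin gene that differed by -1.70 and -1.50. For the lower genes, the lower neighbours included Dnmt3a, which overlaps Dnmt3aos, and Tmem51, which overlaps Tmem51os1. The others were Pik3r2 beside 2010320M18Rik, Mvd beside 9330133O14Rik, Zfp652 beside B130006D01Rik, Enc1 beside Gm5086 and Sec14l1 beside Snhg20 (-2.14 and -1.39). The nearest neighbours of AW112010 (Ms4a8a, 0.19 and 0.34) and F630028O10Rik differed by less than 2-fold, and the gene on the other side of AW112010, Ms4a18, by -1.48 and -1.21.

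Opposite-strand genes, named with os or as after a gene, numbered 36, and 27 of their partner genes were above background on all arrays. In WT cells 2 of the 36 were higher with LPS and 6 lower (median -0.48), and in LysM-St18flox cells 0 and 7 (median -0.23). The shares over all listed probes were 10.4% and 11.4% in WT and 8.08% and 8.32% in LysM-St18flox cells. Dnmt3aos was at 0.62 and -0.64 in WT and 0.51 and -0.70 in LysM-St18flox cells, and Dnmt3a, a DNA methyltransferase gene, differed by -2.37 and -2.40. Tmem51os1 differed by -1.85 and -1.77 and Tmem51 by -2.77 and -2.22. Map2k3os went lower (-2.06 and -1.79), while Map2k3, a kinase gene of the p38 pathway, differed by 0.55 and 0.73. Bach2os differed by -1.74 and -1.81 and Bach2, a transcriptional repressor gene, by -1.41 and -0.41. Zeb2os and Oip5os1 stayed within 0.38 of 0 in both genotypes.

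The snoRNA host list had 15 measured genes. In WT cells 0 were at least 2-fold higher and 2 lower (median -0.17), against 10.4% and 11.4% of all listed probes, and in LysM-St18flox cells 0 higher and 3 lower (median -0.36), against 8.08% and 8.32%. Snhg20 was lower in both genotypes, at 1.76 and 0.70 in WT and 1.71 and 0.28 in LysM-St18flox cells. Snhg12 was at 0.76 and -0.18 in WT and 0.84 and -0.18 in LysM-St18flox cells, differing by -0.94 and -1.01. Snhg10 differed by -1.01 and -0.83, and 2410006H16Rik, whose span holds Snord49a, Snord49b and Snord65, by -0.94 and -1.24. Only Snhg20 passed 2-fold in both genotypes, and the other 3 in 1 each.

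The brighter hosts differed little. Snhg7 was at 4.03 and 4.57 in WT and 4.60 and 4.55 in LysM-St18flox cells, and Snhg15 at 3.42 and 3.69 and at 3.66 and 3.65. Snhg8 was at 2.84 and 2.91 in WT and 3.00 and 2.92 in LysM-St18flox cells. Snhg6 and Snhg7 differed by 0.55 and 0.54 in WT cells, and by 0.07 and -0.05 in LysM-St18flox cells. No host passed 2-fold between genotypes at either time, with differences of -0.08 to 0.86 at 0 h and -0.42 to 0.39 at 3 h. By position instead of by list, 23 genes hold a snoRNA or scaRNA gene (14 of them on the list). Of these 23, 0 were higher with LPS and 3 lower in WT cells, against 10.4% and 11.4% of all listed probes. In LysM-St18flox cells 1 was higher and 3 lower, against 8.08% and 8.32%.

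Many snoRNA host genes are known to begin with a 5' terminal oligopyrimidine tract, the feature through which ribosomal protein mRNAs are translated under control of growth signals. The bases around the annotated start are shown for the windows where a C and at least 4 further pyrimidines began within 5 bases of it, on either side. Each stretch runs from 5 bases before to 25 after the start, with the tract in capitals. The tracts of Snhg10 and Snhg9 lie wholly before the annotated start. The rule counts letters near that start and does not show that the RNA begins with them.

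Snhg7: tcggCCTCTCggcagccatggcggctctat
Snhg8: gaagtCTCTTTggctgcgatccgcctacga
Snhg12: agtCCTTTCTCgcttcatccgcggtccctg
Snhg3: cgcctgaCTTCCgggcgttacttaaggtat
2410006H16Rik: tCTTTCTCTgcggccatcatgggatcgtgc
Snhg10: CTTTTgcggtgattgctacggtaacgcggc
Snhg9: CCCTCgccgaagccgcgccctacaccagcc
1110038B12Rik: acacgggtCTCTTTgtgcacccgcccacac

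Such a tract was found in 9 of 14 windows of the 13 hosts with one given (64.3%), 2 of them starts of 1110038B12Rik. Windows of cytosolic ribosomal protein genes had it in 42.5%, and all windows in 18.3%. These are shares of letters near annotated starts, and the 9 include the windows of Snhg10 and Snhg9. The stretches lie at chr2:26640220-26640249 (Snhg7, minus strand), chr3:123508312-123508341 (Snhg8, minus) and chr4:132308673-132308702 (Snhg12, plus). The others are at chr4:132353662-132353691 (Snhg3, minus), chr11:62602872-62602901 (2410006H16Rik, plus), chr12:105032255-105032284 (Snhg10, minus), chr17:24719941-24719970 (Snhg9, minus) and chr17:34952447-34952476 (1110038B12Rik, minus). A tract by this rule was held by hosts at least 2-fold lower with LPS in 1 genotype and by hosts that differed little (Snhg7, Snhg8). The former were Snhg10 in WT, and Snhg12 and 2410006H16Rik in LysM-St18flox cells. Snhg20 held none.

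Hosts of microRNAs on the list, 5 in number, did not pass 2-fold with LPS in either genotype by their brightest probes (medians -0.32 and -0.33). Dleu2, host of miR-16 and lost in some leukaemias, was at 1.65 and 1.21 in WT and 1.66 and 1.32 in LysM-St18flox cells. Mir22hg was at 2.52 and 2.69 in WT and 1.97 and 2.75 in LysM-St18flox cells, and Mirc35hg at 0.22 and -0.10 and at -0.08 and -0.11. Both differed less than F630028O10Rik. Of the 10 genes with a same-strand microRNA, 3 were lower in each genotype and 0 higher. In WT cells the lower ones were F630028O10Rik, Snhg20 and Snhg10, and in LysM-St18flox cells F630028O10Rik, Snhg20 and 2900076A07Rik (-1.07). Over all listed probes 11.4% were lower and 10.4% higher in WT cells, and 8.32% and 8.08% in LysM-St18flox cells. E130102H24Rik, host of miR-101a, differed by 0.18 and 0.28, and D7Ertd143e by -0.39 and -0.27. Pvt1, a large lncRNA beside the Myc gene, differed by -0.79 and -0.89. No probe of a microRNA gene itself was among the 624.

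Nuclear and chromatin lncRNAs, 12 on the list, had 1 gene higher with LPS and 1 lower in WT cells (median -0.11). The shares over all listed probes were 10.4% and 11.4%. In LysM-St18flox cells 1 was higher and 2 lower (median -0.27), against 8.08% and 8.32%. Neat1, the scaffold of nuclear paraspeckles, was at 0.56 and 0.20 in WT and at 1.83 and 0.09 in LysM-St18flox cells. Its value at LysM-St18flox 0 h stood above the other 3 arrays, and the second probe was also highest there, with an LPS difference of -0.16 in WT and -1.51 in LysM-St18flox cells. Xist, which coats the inactive X chromosome, was above background on all 4 arrays and the Y-linked genes Ddx3y, Eif2s3y, Kdm5d and Uty on none. Tug1 and Norad differed by less than 0.20 in both genotypes at their brightest probes. Firre, an X-linked nuclear RNA, came close to 2-fold lower, at -0.03 and -1.03 in WT and -0.26 and -1.05 in LysM-St18flox cells. Kcnq1ot1, an imprinted antisense RNA, had 4 probes that disagreed, with LPS differences in WT cells of -1.27, 1.21, 0.50 and 0.64, so the gene has no settled direction.

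Of the immune-linked list, 7 genes were measured, 2 higher with LPS and 3 lower in each genotype. Over all listed probes 10.4% were higher and 11.4% lower in WT cells, and 8.08% and 8.32% in LysM-St18flox cells. The lower genes of this list were F630028O10Rik and Dnmt3aos in both, with Mirt2 in WT and Neat1 in LysM-St18flox cells. Mirt2, known as an LPS-inducible inhibitor of Toll-like receptor signalling, was at -0.19 and -1.87 in WT and -1.81 and -2.80 in LysM-St18flox cells. Its values were lower after LPS in both genotypes and lower in LysM-St18flox cells at both times. Mirt1 differed by -0.32 and -0.28.

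Among small structured RNAs, some stood apart on 1 array. This group, of 25 genes, covers spliceosomal U RNAs, ribosomal RNA, 7SK, RNase P and MRP RNA, telomerase RNA and snoRNAs. In WT cells 9 were higher with LPS and 1 lower (median 0.53), against 10.4% and 11.4% of all listed probes. In LysM-St18flox cells 0 were higher and 1 lower (median -0.25), against 8.08% and 8.32%. At 0 h 9 were higher in LysM-St18flox cells and 0 lower (median 0.41), against 4.51% and 3.69%. At 3 h 0 were higher and 0 lower (median -0.44), against 1.31% and 1.04%. The WT 0 h array, which those WT and 0 h comparisons share, was at least 2-fold below every other array for 6 of the 25 (24%), against 1.87% of all listed probes, and it was the lowest array for 14.

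Rn28s1, 28S ribosomal RNA, was at 2.95 at WT 0 h and at 7.97, 7.17 and 7.02 on the other arrays. Rnu1b1, a U1 spliceosomal RNA, was at 1.81 against 3.77, 3.12 and 3.07. Rn7sk, the 7SK RNA that holds the elongation factor P-TEFb inactive, was at 1.74 against 2.91, 3.12 and 2.91. Rnu2-10 and Snord33 were also lowest at WT 0 h, at -2.84 against -1.69 to -0.74 and at -2.28 against -1.44 to -0.80. Not all members did so: Rnu12, of the minor spliceosome, was at 2.88, 2.83, 2.84 and 2.93, and Terc, the telomerase RNA, at -1.57, -2.25, -1.84 and -2.20. In the comparisons without the WT 0 h array, the 25 genes differed by -1.10 to 0.14 with LPS in LysM-St18flox cells and by -0.96 to 0.10 between genotypes at 3 h. Most lay below 0 there too, with 2 of the 25 above 0 in the former and 4 in the latter. The medians over all listed probes were -0.06 and -0.01.

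Among pseudogenes, Marcksl1-ps4 had the largest LPS difference, at 0.90 and 5.34 in WT and 0.66 and 4.98 in LysM-St18flox cells, 21.7-fold and 20.0-fold higher. Marcksl1, the parent it is named after, differed by 4.12 and 4.48, and the signal of the 2 genes may not be separable by these probes. H2-Q5, of the MHC class I Q region, was 8.90-fold and 5.29-fold higher and Slfn10-ps 6.13-fold and 6.53-fold. Both belong to families of near-identical genes. Bambi-ps1 differed by 1.55 and 0.84, whereas Bambi, a pseudoreceptor gene that inhibits TGF-beta signalling, differed by -1.47 and -1.28.

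The genotype comparison asked how LysM-St18flox cells differed from WT cells at each time. In the unstimulated arrays LysM-St18flox cells had 41 of the 624 probes (6.57%) at least 2-fold higher, against 4.51% of all listed probes, and 38 (6.09%) lower, against 3.69%. At 3 h 6 (0.962%) were higher, against 1.31%, and 6 (0.962%) lower, against 1.04%. Over both times 1 probe was higher, against 0.687% of all listed probes, and 1 lower, against 0.341%. Counts at 0 h rest on the WT 0 h array. That array was at least 2-fold below all others for 20 members (3.205%), against 1.868% of all listed probes. It was at least 2-fold above all others for 18 members (2.885%), against 1.503%.

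1700084M14Rik, a pseudogene by RefSeq type, was at -3.24 and -2.85 in WT and -1.26 and -1.84 in LysM-St18flox cells. The non-coding transcript of Clmn, a gene for an actin-binding membrane protein, was at -2.41 and -3.10 in WT and -3.61 and -4.33 in LysM-St18flox cells. Both were dim, below the 20th percentile of signal. Neither passed 2-fold at both times with normexp correction.

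At 0 h the largest higher differences of named members after Rn28s1 were those of 4933438K21Rik (3.25), 9430078K24Rik (2.90) and 5430431A17Rik (2.26). Each was lowest at WT 0 h, as in 4933438K21Rik at -2.14 against 0.02, 1.11 and 0.45. The largest lower differences were those of 4833415N18Rik (-2.30), at 2.29 at WT 0 h and at 0.15, -0.01 and 0.11 elsewhere, and 4930478P22Rik (-2.21). At 3 h 1700120C14Rik was 2.18 higher and Hmgb4os 2.15 lower in LysM-St18flox cells. Hmgb4os was at -3.63 and -2.01 in WT and -3.81 and -4.16 in LysM-St18flox cells, so the value at WT 3 h stood above the others. Gm16548, higher by 0.93 and 1.06, overlaps Selp, the P-selectin gene, which was 1.05 and 0.96 higher. Selp is also a marker of large peritoneal macrophages, and LysM-St18flox cells had 4 of the 7 such markers past 2-fold higher before LPS and 3 after. The summed signal of the 7 was nearly all that of Fn1, at 200 and 277 in WT and 161 and 203 in LysM-St18flox cells. Fn1 itself was at 7.63 and 8.10 in WT and 7.28 and 7.62 in LysM-St18flox cells. The sum thus follows Fn1 and does not describe the other markers. Gata6 and Timd4 differed by less than 2-fold at both times.

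Markers of other cells differed between the genotypes at both times, and their part in the genotype differences of non-coding RNAs was not tested. Of 8 B cell markers, LysM-St18flox cells had 7 at least 2-fold higher before LPS and 6 after, with a summed signal of 4.01 and 3.13 in WT and 22.8 and 18 in LysM-St18flox cells. Of the erythroid genes, Hba-a2, an alpha globin gene, was at 2.35 and 2.10 in WT and 5.14 and 5.36 in LysM-St18flox cells, and Hbb-bt, a beta globin gene, at -0.71 and -0.56 in WT and 3.04 and 3.29 in LysM-St18flox cells. Of 7 T and NK cell markers with a probe, 4 were at least 2-fold higher at each time. Mast cell markers summed to 2.17 and 1.92 against 7.05 and 6.85. Mesothelial and fibroblast markers ran the other way, at 7.59 and 7.80 against 3.26 and 2.74. Of the 7 neutrophil markers with a probe, 3 fell below their WT value by 2-fold or more at 0 h, and 3 at 3 h. Above the WT value by that much were 0 at 0 h and 1 at 3 h. S100a9 was at 5.64 and 6.02 in WT and 3.39 and 3.28 in LysM-St18flox cells. Retnlg ran the other way, at 3.07 and 2.78 against 3.88 and 3.90. Ngp was not above background on any array.

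The difference between the LPS responses, LysM-St18flox minus WT, reached 2-fold for 73 of 624 probes (11.7%), against 8.18% of all listed probes, and 15 of the 24 small structured RNA probes were among them. Of the 12 named genes made up of the 6 largest such differences in each direction, WT 0 h was at least 2-fold below all other arrays for 6 and above all others for 5. The remaining gene was 1700120C14Rik, at -1.74 and -2.79 in WT and -2.21 and -0.61 in LysM-St18flox cells. LPS differences of at least 2-fold in opposite directions occurred for 3 probes (0.481%), against 0.11% of all listed probes. These were 1700120C14Rik, 5430431A17Rik and 9430078K24Rik.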

How the data were processed

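RNA was measured on Agilent 1-colour arrays, 1 per group and 4 in all. Agilent Feature Extraction 11.0.1.1, named in the submitters' processing notes, gave the deposited spot intensity values, background-subtracted and detrended with no scaling between arrays per the file headers. The deposited value table holds log2 values. Its 4 columns have the same sorted values within 0.001 and a median of 9.58, and each follows its own array's scanner values (correlation at least 0.99994), so its scale and direction are known from this and the step that equalised the arrays is not.

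Control spots and outlier-flagged spots were left out, spots of a probe were averaged as log2, and the 75th percentile of the array's spots was taken off. Accessions were matched without version to the RefSeq gene table of GRCm38.p6, used for names, gene types and gene order. The headers name build mm9, so coordinates are given only for sequences of the RefSeq tables. A gene with several probes is given by its brightest. Between 52.2% and 55.6% of spots were well above background, and spots printed repeatedly gave an SD of 0.05 (log2) for a difference of 2 arrays. This covers spot error only.

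With 1 array a group no test was made, and differences were counted from 2-fold. Named were all measured members of the gene lists (snoRNA hosts, microRNA hosts, microRNA genes with 0 members, nuclear and chromatin lncRNAs, immune-linked lncRNAs, small structured RNAs, opposite-strand genes). To these were added the 10 brightest members, the 12 largest LPS differences in each direction and genotype, the 8 largest genotype differences in each direction and time, members 2-fold apart at both times and the 6 largest response differences in each direction. Some of these are counted and not named in the text. Members and lists were chosen with earlier results of these data known. The 2-fold rule was run on simulated data with spot error only and changes well above 2-fold, so their recovery was settled beforehand. That run does not cover changes near 2-fold or variation between mice, cultures or arrays. Alternatives were normexp background correction (limma 3.58.1 in R 4.3.3, offset 50, on median signals), quantile normalization, centring on listed probes, the deposited values, a signal minimum, probes outside the table, other ways of joining probes of a gene, and keeping outlier spots. Python 3.11.15, numpy 2.4.6 and pandas 2.3.3 were used.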

Additional observations from a re-analysis of the deposited data

Results flagged for a closer look

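In 3 lncRNA genes the arrays moved by at least 2-fold in opposite directions with LPS in the 2 genotypes, and the difference was not tested. The response of LysM-St18flox minus that of WT cells was 2.65 (log2) for 1700120C14Rik, -2.24 for 5430431A17Rik and -3.12 for 9430078K24Rik. The latter pair had their lowest value at WT 0 h.

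Signal appeared after LPS in probes outside the value table, which the comparisons above do not use. These probes were above background at 3 h in both genotypes and at 0 h in neither. They numbered 31 of the 388 NR_ probes outside the table that were above background on at least 1 array. The share over all probes outside the table is not given here, so that count has no background. Only bounds can be given for the differences. Each is set against the 0 h array's lowest signal above background, or the probe's own signal there if that was higher. U90926, a transcript known to be induced by LPS in macrophages, was at least 33.4-fold higher in WT cells (log2 bound 5.06) and at least 20.1-fold higher for the LysM-St18flox arrays. 9530036O11Rik was at least 26.5-fold higher in WT cells (4.73) and 26.2-fold in LysM-St18flox cells. Gm9895 had bounds of 4.07 and 3.61, and Gm18852 of 3.04 and 3.83, on the log2 scale. Others in the same class with smaller bounds were Ptgs2os2, beside the cyclooxygenase gene Ptgs2 (2.87 and 2.98), and Il1bos, opposite Il1b (1.21 and 1.38).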

How the results depend on the processing

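Counts of members at least 2-fold apart were recomputed under 9 alternatives, and no named difference past 2-fold, each taken by gene, changed sign. Single probes of a gene can disagree: a second probe had the opposite sign for 1 called gene in each LPS comparison and 1 in the genotype comparison at 3 h. Normexp correction lowered the member counts: WT LPS lower 46, LysM-St18flox LPS lower 36 and lower in both genotypes 21. Between genotypes 24 were higher and 20 lower at 0 h, 2 and 1 at 3 h, and 0 and 0 at both times. Opposite responses numbered 1 and response differences 43. Counts over all listed probes also fell, as given above for LPS. For the genotype they went from 1150 and 939 to 616 and 634 at 0 h, and from 335 and 266 to 180 and 139 at 3 h. For the response difference they went from 931 higher and 1152 lower to 516 and 560. For the other rules no such count is given here. Among the 202 members at or above the median signal of listed probes, LPS gave 27 higher and 9 lower in WT, 22 and 12 in LysM-St18flox cells and 14 and 5 in both, near the shares of all probes that bright (11.2% and 6.84%, 9.88% and 4.81%, 7.72% and 3.78%). The genotype gave 14 and 14 at 0 h, against 2.37% and 2.71% of all probes that bright. At 3 h it gave 0 and 1, against 0.597% and 0.298%, and at both times 0 and 0, against 0.353% and 0.173%. The response difference gave 20, against 3.75%. These are fewer probes by construction. The deposited table gave 0 higher at both times. Without the restriction to the table, 11 were higher at 3 h. Of 189 named values past 2-fold, 135 kept direction and 2-fold with normexp, 173 in the deposited table, 174 with quantile normalization and 185 with centring. No paired analysis was possible because the labels carry no replicate numbers. Dim spots limit these results: transcripts detected on some arrays have bounds only, and 1 array per group leaves mice, cultures and arrays inseparable.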

Other observations

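Among probes outside the table, 14 were above background at 0 h in both genotypes and at 3 h in neither. The largest bounds in WT cells were those of B230208H11Rik (log2 -2.12 in WT and -1.61 in LysM-St18flox cells) and 2900005J15Rik (-2.06 and -1.82). By genotype, 17 probes were above background in both LysM-St18flox arrays and no WT array, and 10 the reverse. These counts are of the 388 NR_ probes outside the table that were above background on at least 1 array. Shares over all probes outside the table are not given here, so the counts have no background. Of the 17 probes with signal in LysM-St18flox arrays only, 1 had the largest log2 bound at 0 h. This was G730013B05Rik, with a bound of 2.28 at 0 h and 0.94 at 3 h.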
